A study of Mus musculus with 8 samples.

Results

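The series measured 19938 genes in hepatic stellate cells, pericytes of the liver that store retinoids. The part described here is 9 small leucine-rich proteoglycan genes, not the whole family: Dcn, Bgn, Aspn, Fmod, Lum, Prelp, Omd, Ogn and Podn. They were taken by gene symbol, and each had 1 probe set whose platform annotation names that gene alone. The control group was 4 arrays (control 1 to 4) from C57BL/6J mice with floxed Lhx2 and no Cre. The knockout group was 4 arrays (knockout 5 to 8) from mice of the same background with floxed Lhx2 and the Mx1Cre transgene. Both groups had received poly(I:C), a synthetic RNA that switches on interferon, 3 times, and stellate cells were sorted from the liver on retinoid autofluorescence 2 weeks later. No ages are given in the labels used here. Mx1Cre is driven by an interferon-responsive promoter in many cell types, and only the knockout carried it, so deletion of Lhx2 in stellate cells, deletion in other cells and the transgene itself cannot be told apart. Whether each array came from its own animal is not stated, so the spread that the p-values rest on may be technical.

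Small leucine-rich proteoglycans are secreted matrix proteins built of a curved run of leucine-rich repeats that carries chondroitin, dermatan or keratan sulfate chains, or none. They bind collagen and set the width and spacing of its fibrils, and several also hold growth factors such as TGF-beta or act on cell surface receptors. Class I has decorin (Dcn), biglycan (Bgn) and asporin (Aspn), and class II has fibromodulin (Fmod), lumican (Lum), PRELP (Prelp) and osteomodulin (Omd). Class III is represented by osteoglycin, also called mimecan (Ogn), and class V by podocan (Podn). In the liver, decorin, biglycan and lumican are products of stellate cells and of portal fibroblasts, and collagen-rich scars hold more of them.

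Lhx2, the deleted LIM homeobox transcription factor, had log2 levels between 11.88 and 12.07 in the control arrays and between 11.09 and 11.49 in the knockout arrays, so the groups did not overlap. The difference was -0.66 (SE 0.09, limma adjusted p = 0.00136), which left 63.3% of the control level, and whether its probe set lies in the deleted part was not given. The stellate cell markers Lrat, Reln and Des had control means of 13.65, 13.82 and 12.42. The log2 values of the table reached from 4.19 to 14.4, with array medians of 7.42 to 7.47. The 95th percentile of 1194 olfactory and vomeronasal receptor genes, 6.77, serves below as a guide to the level of genes that are not expressed.

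Of the 9 members, 4 rose in the knockout, 0 fell and 5 did not pass the test. The risen members were Ogn, Fmod, Podn and Omd. At an unadjusted p under 0.05, 5 were higher (Lum was the fifth) and 1, Dcn, was lower, beside 8.91% of all genes higher and 8.57% lower. Over all genes tested, 3.76% rose and 3.63% fell at the same threshold, an adjusted p under 0.05 in limma. By class, the risen among the 9 members were 0 of 3 in class I and 2 of 4 in class II. In classes III and V they were 1 of 1 each. Measured relatives outside the 9, such as Kera, Epyc, Optc and Podnl1, are not in these counts, so they do not describe whole classes. Of 8 such relatives 1 rose, Ecm2, and 0 fell. The median difference of the members was 0.29 on the log2 scale, beside -0.02 over all genes. The knockout arrays all lay above the control arrays for 5 members, beside 6.38% of all genes, and all below for 1 member, beside 6.32%. In sorted bulk samples, a change in the number of cells of a type and a change in RNA per cell cannot be told apart.

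**Figure D1:**
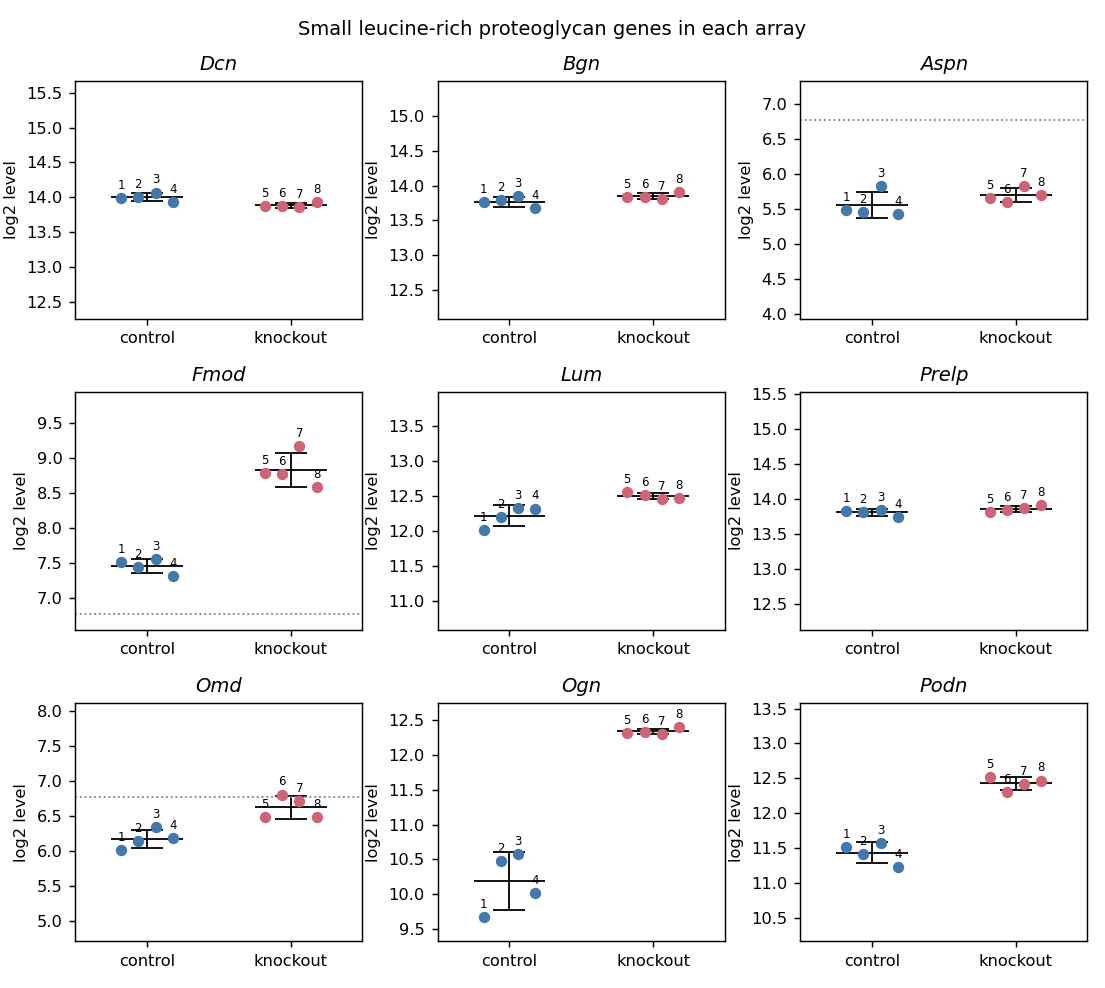
Log2 level (y axis) of each member in the control arrays (blue, 1 to 4) and knockout arrays (red, 5 to 8), with the mean and SD of each group in black. All panels span the same number of log2 units, and the dotted line, where in range, is the receptor gene guide of 6.77. Ogn, Fmod and Podn stand apart between groups, and Dcn, Bgn and Prelp sit close to 14 in all arrays.

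Ogn, a collagen-binding keratan sulfate proteoglycan first isolated from bone, changed most. Its log2 levels were 9.68, 10.48, 10.58 and 10.02 in control 1 to 4 and 12.31, 12.33, 12.30 and 12.39 in knockout 5 to 8. The knockout arrays lay within 0.09 of each other, and the control arrays were spread over 0.90 with control 1 lowest. The lowest knockout array was 1.72 above the highest control array. The mean went from 10.19 ± 0.42 to 12.33 ± 0.04 (SD, n = 4 each), a difference of 2.14 (SE 0.17, limma adjusted p = 6.66e-05). That is 4.41-fold, with a 95% confidence interval of 3.36 to 5.78.

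Fmod, fibromodulin, a keratan sulfate proteoglycan that binds fibrillar collagen and influences its crosslinking, was 7.51, 7.45, 7.56 and 7.32 in the controls. In the knockout it was 8.79, 8.77, 9.17 and 8.59. All 8 arrays were above the receptor gene guide, the control arrays by less than 1 log2 unit. Knockout 7 was the highest and knockout 8 the lowest of the knockout group, and even the latter was 1.03 above the highest control. The difference was 1.37 (SE 0.11, limma adjusted p = 8.05e-05), or 2.59-fold (95% confidence interval 2.16 to 3.09).

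Podn, podocan, a family member known from kidney podocytes and the vessel wall, was 11.52, 11.42, 11.58 and 11.23 in the controls and 12.52, 12.30, 12.42 and 12.47 in the knockout. The groups were separated by 0.72, more than the range within either of them. The difference was 0.99 (SE 0.08, limma adjusted p = 8.28e-05), or 1.99-fold (95% confidence interval 1.75 to 2.27). These 3 rises kept their call without any single array and without control 1 and control 4 together, with differences of 1.80, 1.33 and 0.93 in that last comparison for Ogn, Fmod and Podn.

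Promoter sequence from RefSeq (build GRCm38.p6) was at hand for 7 of the 9 members, not for Dcn and Lum. The 250 bases before the start are shown for the 3 members that changed most, so that their base composition can be seen. For Podn, which has 2 entries, the one at the outer end of the gene is shown. Capitals mark TATAAA on either strand, which overlap in the Ogn sequence.
Ogn (chr13:49607765-49608014, plus strand): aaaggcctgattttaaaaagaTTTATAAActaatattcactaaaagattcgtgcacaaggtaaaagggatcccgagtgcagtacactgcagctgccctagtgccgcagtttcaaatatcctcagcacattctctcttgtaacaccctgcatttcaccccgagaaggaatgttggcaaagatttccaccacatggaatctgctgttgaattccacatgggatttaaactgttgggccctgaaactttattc
Fmod (chr1:134037004-134037253, plus strand): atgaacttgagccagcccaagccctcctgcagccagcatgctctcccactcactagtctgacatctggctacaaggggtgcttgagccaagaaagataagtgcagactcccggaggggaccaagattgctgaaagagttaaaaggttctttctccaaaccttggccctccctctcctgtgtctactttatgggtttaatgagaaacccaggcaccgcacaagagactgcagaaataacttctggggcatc
Podn (chr4:108031955-108032204, minus strand): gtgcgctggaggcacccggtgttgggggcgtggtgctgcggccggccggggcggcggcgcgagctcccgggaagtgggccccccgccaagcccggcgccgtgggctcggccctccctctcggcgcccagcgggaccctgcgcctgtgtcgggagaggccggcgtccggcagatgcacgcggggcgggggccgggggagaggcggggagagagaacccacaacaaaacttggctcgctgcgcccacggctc
Over the 300 bases from 250 before to 50 after the start, G and C made up 42.3% in Ogn, 51.0% in Fmod and 77.0% in this Podn entry, beside a median of 52.7% over 32851 promoter entries. The count of CG dinucleotides was 4, 3 and 41, beside a median of 7. The second Podn entry had 63.0% and 7, so the values for Podn depend on the entry, and which start the cells use was not measured. TAATTA, the core letters bound by LIM homeodomain proteins, was searched on both strands. It occurred in 0 of the 8 member entries and in 5.29% of all entries. TATAAA occurred in Ogn and in Aspn, and in 13.6% of all entries. TGANTCA, the letters of AP-1 sites, occurred in 0 member entries and in 7.81% of all. A match or its absence describes only these letters in this window.

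Omd, osteomodulin, a keratan sulfate proteoglycan of bone and tooth matrix, rose by little and at a low level. It was 6.02, 6.14, 6.34 and 6.19 in the controls and 6.49, 6.81, 6.71 and 6.49 in the knockout. The groups did not overlap, but 7 of the 8 arrays lay under the receptor gene guide of 6.77, so the size of the change is uncertain. The difference was 0.45 (SE 0.09, limma adjusted p = 0.0170). The call was lost without control 2 (adjusted p = 0.0547), without knockout 7 (adjusted p = 0.0501) and without control 1 and control 4 together (adjusted p = 0.151).

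Lum, lumican, a keratan sulfate proteoglycan that spaces collagen fibrils in cornea and skin, was 12.01, 12.20, 12.33 and 12.32 in the controls and 12.56, 12.52, 12.46 and 12.47 in the knockout. Every knockout array was above every control array, by 0.13 at the closest. The difference of 0.29 (SE 0.08, 95% confidence interval 0.12 to 0.46) did not pass over all genes (limma adjusted p = 0.0542). It passed without control 3 (adjusted p = 0.0444), with quantile normalization (0.0182), with either filter on dim genes (0.0477 and 0.0364), with a trend and robust fitting (0.0180) and with array weights (0.0278). Without control 1 and control 4 the difference was 0.24 (adjusted p = 0.145).

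Dcn, Bgn and Prelp lay near the top of the scale. Dcn, decorin, the dermatan sulfate proteoglycan that binds collagen and TGF-beta, was 13.99, 14.01, 14.07 and 13.94 in the controls and 13.88, 13.88, 13.86 and 13.94 in the knockout. All knockout values were below all control values, by less than 0.01 at the closest. The difference was -0.12 (95% confidence interval -0.23 to -0.01, limma adjusted p = 0.256), the only negative one among the members. Bgn, biglycan, which also signals through Toll-like receptors when it is released from the matrix, had a control mean of 13.77 ± 0.07 and a knockout mean of 13.85 ± 0.04 (SD, n = 4 each). Prelp, which links basement membranes to connective tissue, had 13.81 ± 0.05 and 13.86 ± 0.05. The groups overlapped for both, with differences of 0.08 (95% confidence interval -0.04 to 0.20) and 0.05 (-0.06 to 0.16). Whether values this close to the highest of the table (14.4) show the full size of a change was not tested.

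Aspn, asporin, the class I member that inhibits TGF-beta in cartilage, was between 5.43 and 5.83 in the controls and between 5.60 and 5.83 in the knockout. All 8 values were under the receptor gene guide, so no level above that of unexpressed genes was measured. The difference was 0.14 (95% confidence interval -0.07 to 0.36, limma adjusted p = 0.543).

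**Figure D2:**
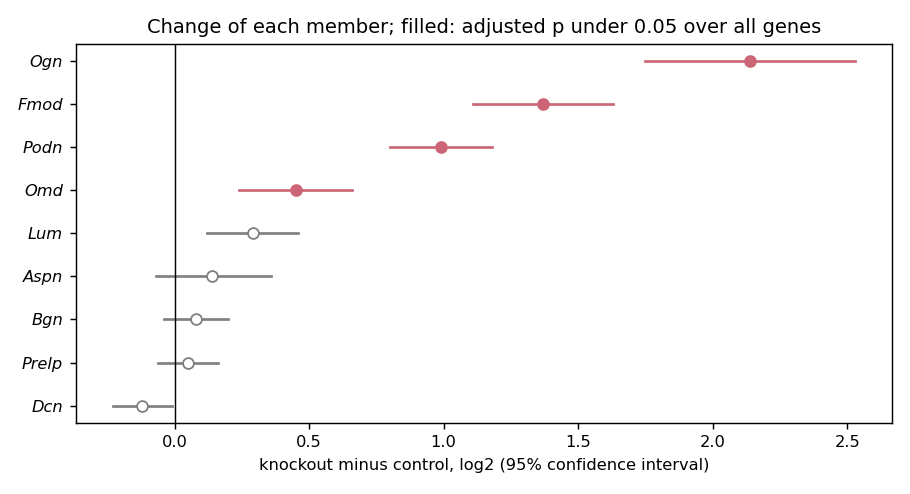
Difference between knockout and control on the log2 scale (x axis) for each member, with its 95% confidence interval from limma; filled red points passed an adjusted p of 0.05. The intervals of Ogn, Fmod and Podn begin at 1.75, 1.11 and 0.80, above the upper bounds of the other members.

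The size of the change set the members apart. The interval of Ogn (1.75 to 2.53) lay above that of Fmod (1.11 to 1.63). Those of Fmod and Podn (0.80 to 1.18) overlapped, and so did those of Omd (0.24 to 0.66) and Lum. Within the control group, control 3 had the highest value of 9 of the 9 members. Control 4 had the lowest value of 6 (Dcn, Bgn, Fmod, Prelp, Aspn and Podn), and control 1 that of the other 3 (Lum, Ogn and Omd). In the knockout group no array was highest for more than 4 members. Mean levels of 11 hepatocyte markers were highest among the controls in control 1 (11.01), and those of 10 sinusoidal endothelial markers in control 4 (11.20). Control 3 had 10.71 and 9.43 for these lists, and their part in the order of the control arrays was not tested.

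The family is clustered in the genome, and in the RefSeq table (GRCm38.p6) 7 members lie in 3 runs of neighbouring genes. On chromosome 13 the order among the measured genes is Ecm2, Aspn, Omd and Ogn. Ecm2, a matrix protein with leucine-rich repeats, rose by 0.60 (SE 0.10, limma adjusted p = 0.00487), with an adjusted p of 0.0733 without control 1 and control 4. In this run 3 of 4 genes rose, beside 3.76% of all genes, and 2 of 4 without control 2 or knockout 7, where Omd was lost. Without control 1 and control 4 together both Ecm2 and Omd (limma adjusted p = 0.151) were lost, and Ogn alone passed. Both Omd and Aspn had group means under the receptor gene guide. Cenpp, a centromere protein gene that overlaps the run, was at 5.31 and 5.26 in the control and knockout groups. Nol8, a nucleolar protein gene on the other side, had a difference of 0.07 (adjusted p = 0.634).

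On chromosome 10, where Dcn, Lum, Kera and Epyc follow each other, 0 of the 4 passed in limma, and Dcn and Lum had an unadjusted p under 0.05. Kera, keratocan of the cornea, and Epyc, epiphycan of cartilage, were both under the receptor gene guide, with control means of 5.70 and 5.62. The flanking genes Btg1, an antiproliferative factor, and Ccer1 had differences of 0.01 and 0.03. On chromosome 1, in the order Optc, Prelp and Fmod, Fmod was the one that rose, and Optc, opticin of the eye, had a difference of -0.07. Btg2, an antiproliferative immediate-early gene next to Fmod, fell by 0.75 (SE 0.18, adjusted p = 0.0365), while Lax1, an adaptor of lymphocytes, on the other side had a difference of 0.01. Btg2 no longer passed when control 2, control 4, knockout 5 or knockout 6 was removed (highest adjusted p 0.107) or when control 1 and control 4 both were (0.140). Podn and Bgn stand alone, on chromosomes 4 and X. Of the genes beside them, Slc1a7 and Scp2 next to Podn had differences of -0.25 and -0.13, and Haus7 and Atp2b3 next to Bgn of 0.16 and -0.04, none of which passed; Slc1a7 had an adjusted p of 0.0367 without control 3.

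**Figure D3:**
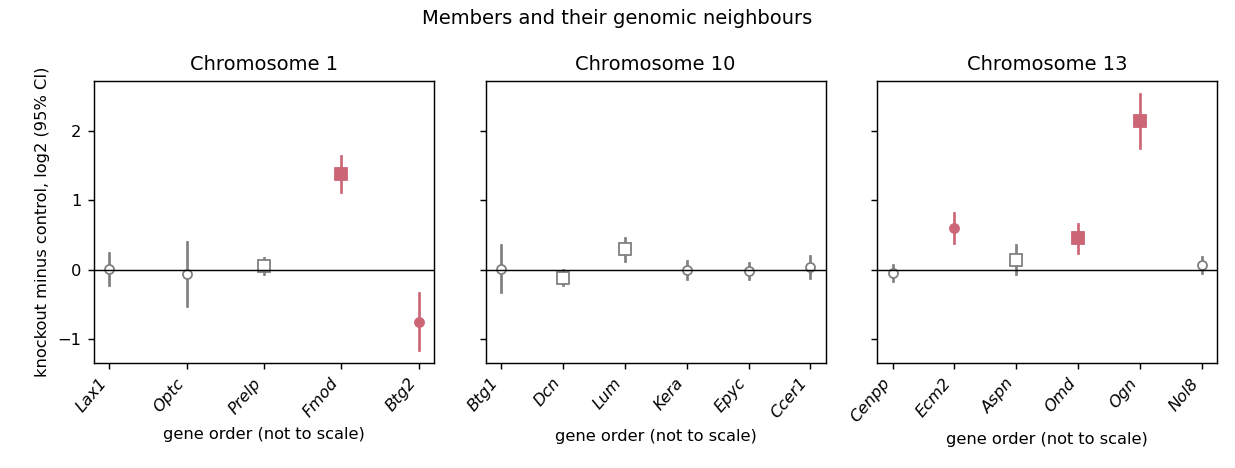
Difference between knockout and control on the log2 scale (y axis, with 95% confidence interval) for the members (squares) and their neighbours (circles) in gene order on 3 chromosomes; filled red symbols passed an adjusted p of 0.05. On chromosome 13 Ecm2, Omd and Ogn passed, on chromosome 10 none of the genes shown, and on chromosome 1 Fmod and Btg2 went in opposite directions.

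The genes whose profile over the 8 arrays was nearest to that of a risen member were found by Euclidean distance after subtracting each gene's control mean. For Ogn they were Cpz, a carboxypeptidase that binds Wnt proteins (distance 0.35), Tnc, the matrix protein tenascin C (0.36), and Gpr39, a zinc-sensing receptor (0.54). Their differences were 2.26, 2.22 and 2.30, the last uncertain in size because all 4 control values of Gpr39 (6.18 to 6.56) lay under the receptor gene guide. For Fmod they were Olfml2b, an olfactomedin-like secreted protein, Col6a2, a chain of collagen VI, and Dkk3, a secreted Dickkopf protein, at distances of 0.24, 0.41 and 0.42. For Podn they were Tmem97, a sterol-regulated membrane protein, Shisa2 and Adhfe1, a mitochondrial dehydrogenase, at 0.30, 0.31 and 0.33. For Omd they were Pcgf5, Cyp2j9 and Mpst at 0.15, 0.20 and 0.22. This distance depends mostly on the size of the change, and 0 of these 12 genes were members.

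Among enzymes that build the sugar chains of these proteins, some of the keratan sulfate and linker steps rose and the dermatan sulfate epimerase Dse fell. Over all genes 3.76% rose and 3.63% fell, the shares to set beside the counts of these lists. Of 7 measured keratan sulfate enzymes, 3 rose and 0 fell (median difference 0.11). Chst1, a galactose sulfotransferase of keratan sulfate, rose by 0.88 from 8.73 ± 0.08 to 9.61 ± 0.25 (SD, n = 4 each; limma adjusted p = 0.00133). Chst2, an N-acetylglucosamine sulfotransferase, rose by 0.52 (SE 0.11), and B4galt1, a galactosyltransferase, by 0.37 (SE 0.07). The call of Chst2 was lost without knockout 8 (adjusted p = 0.0551) and without control 1 and control 4 (0.0903). Of 16 chondroitin and dermatan sulfate enzymes, 0 rose and 1 fell (median difference 0.00; 2 higher and 4 lower at an unadjusted p under 0.05 in limma, where 8.91% and 8.57% of all genes were), and without control 3 a single one rose, Chst15 (adjusted p = 0.0494). The fallen enzyme was Dse, dermatan sulfate epimerase, which turns chondroitin into dermatan sulfate and went from 12.31 ± 0.10 to 11.89 ± 0.04, a difference of -0.42 (SE 0.06, limma adjusted p = 0.00185). Of 7 enzymes of the linker that joins the chains to the protein, 2 rose and 0 fell (median difference 0.18). These were B3galt6, a galactosyltransferase (0.35, SE 0.07), and Pxylp1, a xylose phosphatase (0.30, SE 0.08). Pxylp1 no longer passed when any of control 1, 2 and 4 and knockout 6, 7 and 8 was removed (highest adjusted p 0.118). That took the linker count from 2 to 1. Without control 1 and control 4 together neither passed, with adjusted p of 0.0752 for B3galt6 and 0.297 for Pxylp1.

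Of 13 collagens that members of the family bind, 6 rose and 0 fell (median difference 0.22), beside 3.76% and 3.63% of all genes. The largest rises were those of the collagen VI chains Col6a2 (1.42), Col6a3 (1.10) and Col6a1 (1.01) and of the fibril-forming chain Col3a1 (0.97), with SEs of 0.06 to 0.08. Of 15 proteases and cofactors that process or cut the family, 4 rose and 0 fell (median difference 0.05). Htra1, a secreted serine protease that cuts decorin and fibromodulin, rose by 2.92 (SE 0.09), and Mmp2, a gelatinase, by 1.05 (SE 0.06). Mmp14, a membrane-bound metalloprotease (0.28), and Pcolce, an enhancer of procollagen cleavage (0.22), also rose. The count was 2 with any of control 1, 2 and 4 and knockout 6, 7 and 8 removed, where neither Mmp14 nor Pcolce passed, and without control 1 and control 4 together. Mmp14 alone did not pass without control 3, and Pcolce alone without knockout 5. The highest adjusted p was 0.0992 for Mmp14 and 0.133 for Pcolce.

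Of 21 receptors and growth factors that the family binds, 3 rose and 2 fell (median difference -0.02), beside 3.76% and 3.63% of all genes. Tgfb3 (0.73, SE 0.08) and Bmp4 (0.69, SE 0.08), ligands of the TGF-beta family, rose, as did Cd44, a hyaluronan receptor (0.30, SE 0.07). Tgfb2, another TGF-beta (-1.03, SE 0.15), and Ccn4, a matricellular protein that binds decorin and biglycan (-0.81, SE 0.15), fell. Tgfb1 (-0.27, SE 0.07) did not pass (limma adjusted p = 0.0523), but did without knockout 7 (0.0220), where 3 fell. At an unadjusted p under 0.05 in limma 3 of the 21 were higher and 5 lower, beside 8.91% and 8.57% of all genes. Cd44 did not pass when any of control 1, 2 and 4 and knockout 5, 7 and 8 was removed (highest adjusted p 0.0877) or when control 1 and control 4 both were (0.238), which took the count risen from 3 to 2. Without control 1 and control 4 together the count fallen was 1. Of 8 measured relatives of the family outside the 9 members, Ecm2 alone passed (median difference -0.02). Of 15 genes of hyaluronan synthesis and large proteoglycans, 1 rose, Hspg2, which encodes perlecan (0.35, SE 0.07; adjusted p = 0.114 without control 1 and control 4), and 7 were under the receptor gene guide in both groups (median difference -0.03).

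**Figure D4:**
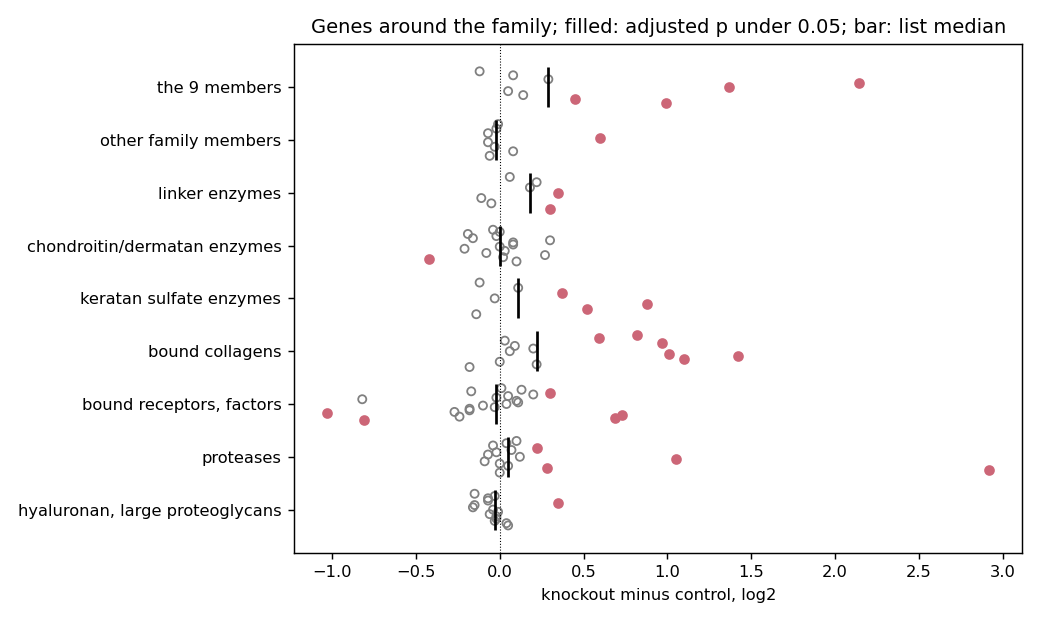
Difference between knockout and control on the log2 scale (x axis) of every measured gene in the lists around the family; filled red points passed an adjusted p of 0.05 in limma, and the black bar is the median of the list. The medians lie between -0.03 and 0.29, the latter that of the 9 members.

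Markers of portal fibroblasts, which also make these proteoglycans, moved along with the members in part. Of 14 such markers 5 rose and 1 fell, beside 3.76% and 3.63% of all genes. Without control 1 and control 4 together 6 rose and 0 fell. At an unadjusted p under 0.05 in limma 7 were higher and 2 lower, beside 8.91% and 8.57% of all genes. Cd34 rose by 3.08 (SE 0.23), Dpep1 by 2.37 (SE 0.21), Dpt, the matrix protein dermatopontin, by 2.28 (SE 0.34), Eln, elastin, by 0.81 (SE 0.10) and Mfap4 by 0.39 (SE 0.05), and Cd9 fell by 0.55 (SE 0.13). The mean level of the list was 8.02 to 8.14 in the control arrays and 8.64 to 8.84 in the knockout arrays, a sum of 112 to 114 and 121 to 124 over the 14 genes. Other markers on the list did not pass. Thy1 was at 7.51 and 7.41 in the control and knockout groups, and Gli1 at 7.78 and 7.77. Pi16, next to the receptor gene guide, was at 6.81 and 6.80. Gas1 (0.25), Fbln2 (0.27) and Entpd2 (-0.29) did not pass either, each with an unadjusted p under 0.05 in limma. Fbln2 passed without control 1 (limma adjusted p = 0.0107) and Gas1 without knockout 8 (0.0446). The sort took cells by retinoid autofluorescence, and the share of cells without retinoid stores among them was not measured. Alb of hepatocytes was at 13.00 and 13.04 in the control and knockout groups, with control arrays from 12.01 to 13.55. Clec4g, the 1 called gene of 10 sinusoidal endothelial markers, was at 12.33 and 11.10. The endothelial markers Stab1, Stab2 and Lyve1 had differences of -0.81 (SE 0.57), -0.36 (SE 0.71) and -0.95 (SE 0.51) and did not pass. The part of portal fibroblasts in the rises of Ogn, Fmod, Podn and Omd was not tested.

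Of 12 stellate cell markers 0 rose and 6 fell, among them Gfap (-1.48), Angptl6 (-0.92) and Reln (-0.26), beside 3.76% and 3.63% of all genes. Lrat (0.10) and Des (0.07) were among the 6 that did not pass. Without control 1 and control 4 the number fallen was 3. The mean level of this list was 12.83 to 12.91 in the controls and 12.50 to 12.54 in the knockout. Of 10 mesothelial markers 0 rose and 1 fell (Wt1), and Msln, Upk3b and Upk1b had control means of 6.91, 7.04 and 6.35. Of 11 hepatocyte markers 0 passed in limma (1 lower at an unadjusted p under 0.05), and of 10 sinusoidal endothelial markers Clec4g alone, which fell by 1.23. The latter list ranged from 8.42 to 11.20 in the controls and from 8.45 to 9.86 in the knockout. Of 12 leukocyte markers 0 rose and 1 fell (Cd68). At an unadjusted p under 0.05 in limma 0 of the 12 were higher and 4 lower, beside 8.91% and 8.57% of all genes. Clec4f, with a difference of -0.45, had a limma adjusted p of 0.0517. Of 10 vascular smooth muscle markers 2 rose (Tagln and Notch3) and 2 fell (Smtn and Mcam), and of 6 cholangiocyte markers 0 passed, also at an unadjusted p under 0.05. Several of these calls did not hold when a single array was removed. Wt1 was lost with any control, knockout 7 or knockout 8 removed, and Clec4g with control 2 or knockout 5. Cd68 was lost with control 1, 2 or 3 or knockout 6 or 7 removed, while without control 4 the leukocyte markers fallen were 3. Cd9 was lost with control 1, 3 or 4 or knockout 6 or 8 removed, and Notch3 with control 2 or 4 or knockout 5, 6 or 7. The highest adjusted p was 0.0879 for Wt1, 0.0580 for Clec4g, 0.0852 for Cd68 and 0.0827 for Cd9 and Notch3.

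**Figure D5:**
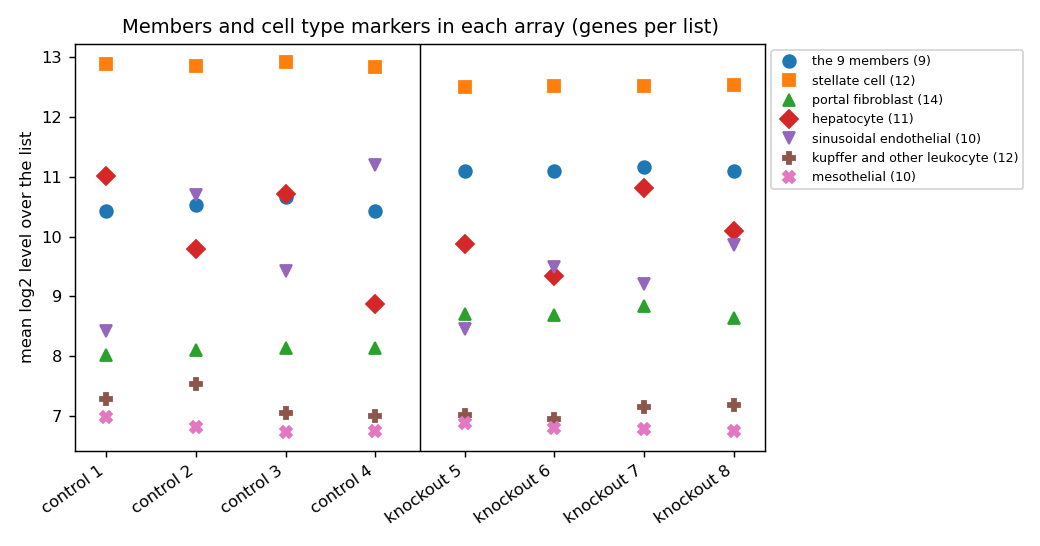
Mean log2 level (y axis) of the 9 members and of 6 lists of cell type markers in each array (x axis), with the number of genes per list in the key. The means of the members and of the portal fibroblast markers are higher in all knockout arrays, and that of the stellate cell markers is lower. Those of hepatocyte and endothelial markers vary among arrays of both groups.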

How the data were processed

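Each sample, 150 ng of RNA, was run on 1 Affymetrix Mouse Gene ST array. The deposited values are log2 expression per probe set, normalized by the authors with RMA per the labels (the submitters' processing notes name it too). Neither version, annotation, genome build nor scan batch is named there, and no batch was tested. Of 35556 probe sets, 21789 had 1 gene symbol, 1621 had several and were left out, and 12146 were unnamed here. For 999 genes with more than 1 probe set the one with the highest mean was used.

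Groups came from the sample titles. Knockout minus control was fitted with limma 3.58.1 (lmFit, eBayes) in R 4.3.3 over all 19938 genes, two-sided, with no covariate and Benjamini-Hochberg adjustment at 0.05; the step was tested on simulated data. An exact two-sided permutation test of Lhx2 over 70 assignments gave p = 0.0286, the smallest that 4 against 4 arrays allow. The number of arrays limits the precision. Members, lists and tests were chosen with earlier results of these data known, and the classes were added after the values were seen. Named were all members, Lhx2, the nearest measured genes beside them and the 3 genes most alike in profile to each risen member. The rule also covered up to 4 called genes per list (all where 5 or fewer passed) and the first 3 markers of each cell type. Not all of these are given above. Of the first 3 markers, Apoa1, Apoa2, Acta2, Myh11, Ptprc, Adgre1, Epcam, Krt7 and Krt19 were left out, and none of them passed. Mfap4, Thy1, Gli1, Pi16, Cd9, Gas1, Fbln2, Entpd2, Podnl1 and Tgfb1 were chosen after their values were seen. The 19 alternative settings covered normalization, filters, fitting, probe sets, thresholds and left-out arrays.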

Additional observations from a re-analysis of the deposited data

Results flagged for a closer look

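In 180 groups of 4 arrays, those of the 90 genes named by the rule, a single array stood apart from the other 3 by Dixon's criterion in 7 cases, where chance gives about 1 in 20. Among the members this held for Aspn alone, with 5.83 in control 3 beside 5.43 to 5.49 in the other controls, all under the receptor gene guide. Control 3 was also highest for Pxylp1 (7.80 beside 7.55 to 7.58) and Cd44 (8.57 beside 8.46 to 8.47). Knockout 7 was highest for B3galt6 (8.29 beside 8.11 to 8.13), and knockout 8 lowest for Htra1 (11.94 beside 12.16 to 12.17). Control 2 was lowest for Gfap (9.32 beside 9.49 to 9.53), and control 4 lowest for Cd68 (10.07 beside 10.49 to 10.56).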

How the results depend on the processing

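The number of members that rose was 4 and lay between 3 and 5 under the 19 alternatives, and 0 fell under each of them. Ogn, Fmod and Podn passed under all 19. Omd did not pass at an adjusted p under 0.01 or with a 1.5-fold threshold, nor in the comparisons without arrays named beside its values, and both filters on dim genes removed it, so that the 4 risen members were then Ogn, Fmod, Podn and Lum. Lhx2 passed under all 19, with differences from -0.73 to -0.59 without single arrays. The number of all genes that passed, 1472 (749 higher, 723 lower), was 776 (371 and 405) without control 1 and control 4, 775 (386 and 389) at an adjusted p under 0.01 and 523 (284 and 239) with at least a 1.5-fold change; fewer arrays and stricter thresholds are what these settings consist of. Median centring and quantile normalization moved the median of all genes by less than 0.1. No paired analysis was possible because the groups share no replicate number. Differences of members near the highest values (Dcn, Bgn, Prelp) or near the level of unexpressed genes (Aspn, Omd) may be understated, which was not tested.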
